A study of Mus musculus with 24 samples.

Results

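The 9 genes described here move iron and heme into, through and out of cells, and they were measured by RNA sequencing in 2 white fat depots of mice lacking FoxO1 in adipose tissue. They were picked by gene symbol from a table of 35275 genes, and all 9 were found: Tfrc and Trf, which take up iron carried in blood, the transporters Slc11a2 and Slc11a1, the ferritin subunits Fth1 and Ftl1, the exporter Slc40a1, the heme-degrading enzyme Hmox1 and the heme scavenger Hpx. The groups were gonadal and inguinal adipose tissue of conditional adipose FoxO1 knockout mice (KO) and the same depots of mice with the floxed FoxO1 gene, used as controls. No source used here gives the Cre line that deletes the gene, or the strain, sex, age and diet. Each group held 6 libraries from 3 animals (KO animals M5, M9 and M12, control animals M6, M7 and M10), with 2 libraries for each animal and depot, and the stated aim of the series was to find genes and pathways under FoxO1 control.

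Cells bring in iron bound to transferrin through the transferrin receptor, store it as ferric iron inside the ferritin shell and release it through ferroportin, the product of Slc40a1. Heme oxygenase opens the heme ring and sets its iron free. Several of these messages carry an iron-responsive element, a short hairpin with a bulged C and a CAGTGN loop. When iron is scarce, iron regulatory proteins bind it, which blocks translation of ferritin and ferroportin from a hairpin in the 5′ untranslated region (UTR) and slows decay of the Tfrc message through hairpins in its 3′ UTR. In fat, both adipocytes and resident macrophages handle iron, and macrophages recycle it from red blood cells.

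The hairpins are shown because they mark which members are open to control by cell iron at the level of the message or its translation. A search of GENCODE M21 transcripts (build GRCm38, also called mm10) for a C, 5 further bases and CAGTGN, with those 5 bases paired in a stem around the loop, on the transcribed strand and in UTRs only, found it in 160 of 21901 protein-coding genes (0.731%). Capitals mark the bulged C and the loop.

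Fth1, 5′ UTR, chr19:9982732-9982761, plus strand: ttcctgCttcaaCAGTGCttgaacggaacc

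Ftl1, 5′ UTR, chr7:45459778-45459807, minus strand: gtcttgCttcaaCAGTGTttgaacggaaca

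Slc40a1, 5′ UTR, chr1:45925464-45925493, minus strand: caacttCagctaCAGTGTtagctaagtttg

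Tfrc, 3′ UTR, chr16:32631219-32631248, plus strand: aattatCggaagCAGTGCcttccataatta

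Tfrc, 3′ UTR, chr16:32631598-32631627, plus strand: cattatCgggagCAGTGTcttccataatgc

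Tfrc, 3′ UTR, chr16:32631663-32631692, plus strand: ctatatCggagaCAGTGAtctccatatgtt

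Tfrc, 3′ UTR, chr16:32631710-32631739, plus strand: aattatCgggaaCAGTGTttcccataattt

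Slc11a2, 3′ UTR of transcript Slc11a2-205, chr15:100395152-100395181, minus strand: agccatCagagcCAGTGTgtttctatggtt

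The ferritin and ferroportin messages each had 1 such hairpin in the 5′ UTR, and Tfrc had 4 in the 3′ UTR. The Slc11a2 site was found when 1 unpaired base was allowed on the 3′ side of the stem, a pattern present in 439 genes (2.0%). With either stem, no match was found in the annotated UTRs of Hmox1, Trf, Slc11a1 or Hpx. In the RefSeq promoter table, 5 members matched with 7 promoters of 300 bases. The FoxO core motif GTAAACA, searched on both strands, was in 0 of these 7, against 3.65% of 32851 promoters, and the antioxidant response core TGACNNNGC was in 1, that of Hpx, against 12.4%. At such shares 0 or 1 of 7 is a likely count for any genes, and sites outside the 300 bases were not searched. The counts therefore do not show whether FoxO or antioxidant factors act on the members.

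Values are FPKM, reads scaled to the listed gene length and to the total of reads assigned to genes, and the libraries held 14953657 to 25438811 such reads. The 2 libraries of a pad were more alike (r = 0.995 to 0.997 across genes, 12 pairs) than libraries of different animals of a group (0.958 to 0.992, 48 pairs), so they were averaged and the animal was the replicate (n = 3). No source used here says whether the 2 libraries are repeat preparations or separate pieces of a pad. Foxo1 itself averaged 4.18 ± 0.24 FPKM in KO and 10.3 ± 2.9 FPKM in control gonadal fat, and 4.10 ± 1.60 FPKM in KO and 15.7 ± 3.5 FPKM in control inguinal fat (SD, n = 3 each), with every KO pad below every control pad of its depot. The 10 adipocyte markers, among them Adipoq and Plin1, were detected in every pad and summed to 10944 to 17778 FPKM in gonadal and 23957 to 40164 FPKM in inguinal pads. Genes of the epididymis, a neighbouring organ, summed to 5296 FPKM in the gonadal pad of KO animal M12, and to 3063 FPKM in that of control M10 and 444 FPKM in that of control M6, but to at most 1.44 FPKM in the other gonadal pads. The 8 B and T cell markers summed to 5.19 FPKM in the inguinal pad of KO M9 and 4.91 FPKM in that of control M7. In the other inguinal pads they summed to 215 to 334 FPKM, and their part in the results was not tested. Tests were run with limma on log2(FPKM + 0.5) over all genes with a mean of at least 0.5 FPKM, and a gene was called at a Benjamini-Hochberg adjusted p under 0.05. All 9 members passed the level filter in every comparison.

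By level, the ferritin subunits stood far above the rest. Ftl1 had a median of 3556 FPKM over the 12 pads and Fth1 3313 FPKM, followed by Hmox1 at 59.8, Slc11a1 at 36.3, Tfrc at 10.2, Slc11a2 at 8.51, Slc40a1 at 3.19, Trf at 2.03 and Hpx at 1.15 FPKM. Neighbours in that order overlapped in their ranges over the 12 pads, except Fth1 and Hmox1, and Slc11a2 and Slc40a1. Both ferritin messages together took 0.882 to 1.51% of all reads in gonadal pads and 0.291 to 0.424% in inguinal pads. Rare members rest on few reads: Hpx had 17 to 180 reads in a pad and Trf 139 to 297, while Fth1 had 57665 to 297057.

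**Figure D1:**
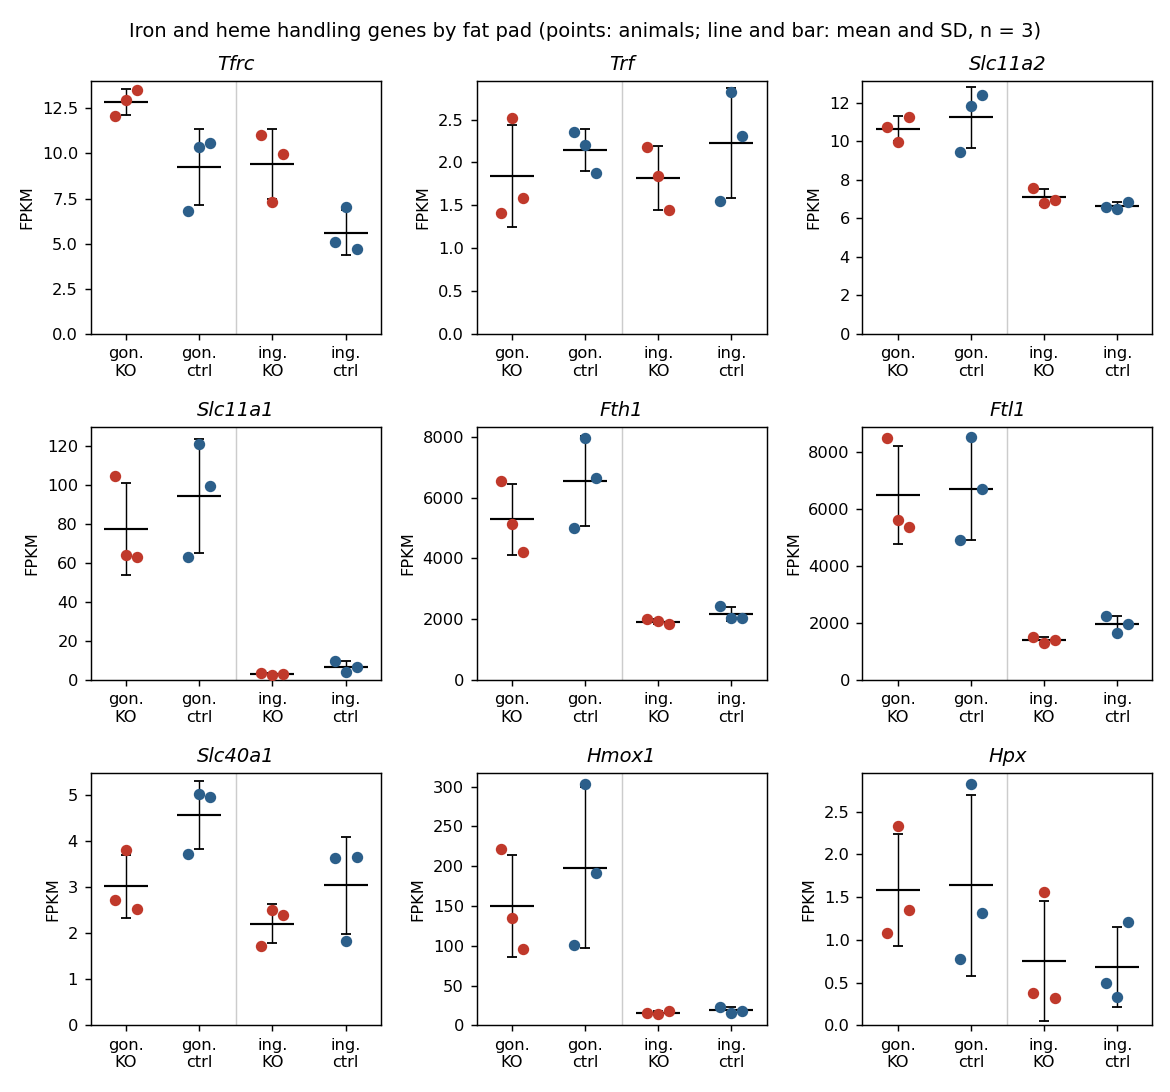
FPKM (y axis, from 0, a separate scale for each gene) of the 9 genes in gonadal (gon.) and inguinal (ing.) fat, with KO animals in red left of control (ctrl) animals in blue; points are animals, the line is the mean and the bar the SD (n = 3). Tfrc was higher in all KO pads than in all control pads of each depot, and Hmox1, Slc11a1, Fth1 and Ftl1 were several times higher in gonadal than in inguinal fat in both genotypes.

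The first comparison asks what loss of FoxO1 did to these genes in each depot. Tfrc was the one member that stood higher in every KO pad than in every control pad of both depots. Slc40a1 averaged lower in KO fat of both depots. Slc11a1, Ftl1 and Fth1 were lower in every KO inguinal pad than in any control inguinal pad, as were 17.3% of all genes. With 3 animals a group, limma called 0 of the 9 members in either depot. Over all genes it called 0 of 14851 in gonadal fat (percent called 0%) and 3 of 13621 in inguinal fat (0.0220%). Foxo1, the deleted gene, was not called either. Its log2 fold change was -1.18 in gonadal (limma adjusted p = 0.407) and -1.86 in inguinal fat (limma adjusted p = 0.129). A gene that was not called can therefore still have changed. The calls also depended on the tool: DESeq2 on the same animals called Tfrc, Slc11a1 and Ftl1 in inguinal fat, with values given below. At an unadjusted p under 0.05, 2 members were found in gonadal fat (Tfrc higher, Slc40a1 lower), against 8.69% of all genes (4.40% higher and 4.30% lower), and 3 in inguinal fat (Tfrc higher, Slc11a1 and Ftl1 lower), against 14.9% (3.29% higher and 11.6% lower). The median log2 fold change over the 9 members was -0.20 in gonadal fat, against -0.02 over all genes, and -0.22 in inguinal fat, against -0.10 over all genes.

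Tfrc encodes transferrin receptor 1, the main entry point for transferrin-bound iron. In gonadal fat it had 12.1, 13.0 and 13.5 FPKM in KO animals M5, M9 and M12, against 6.83, 10.4 and 10.6 FPKM in control animals M6, M7 and M10. In inguinal fat it had 11.0, 7.28 and 9.95 FPKM in the same KO animals, against 5.08, 7.06 and 4.71 FPKM in the controls. The groups did not overlap in either depot, though KO animal M9 and control animal M7 lay close together in inguinal fat. Pads that do not overlap, with the KO higher, made up 6.79% of all genes in gonadal and 5.28% in inguinal fat. The log2 fold change was 0.48 in gonadal fat (SE 0.17, 95% interval 0.05 to 0.90), with unadjusted p = 0.0338 and limma adjusted p = 0.534. In inguinal fat it was 0.70 (SE 0.21, 95% interval 0.20 to 1.2), with unadjusted p = 0.0143 and limma adjusted p = 0.224. Adipocyte markers moved with genotype in gonadal fat, where 9 of 10 were higher in KO, 6 of them at an unadjusted p under 0.05, with a median log2 fold change of 0.41. The remaining 1 was lower, at -0.80, also with an unadjusted p under 0.05. In inguinal fat 5 were higher and 5 lower, with a median of -0.07, and 1 was lower at that level. The 10 markers summed to 12388 to 17778 FPKM in KO and 10944 to 13606 FPKM in control gonadal pads, with none at 0, and their part in the values of Tfrc and Slc40a1 was not tested. Without control M6 the gonadal Tfrc value was 0.28, more than 1.5 times smaller, and in the 3 gonadal pads with under 100 FPKM of epididymis genes (KO M5 and M9, control M7), a subset chosen after seeing the data, it was 0.26.

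The authors' deposited tables, which count the 6 libraries of a group as replicates and list only genes they found changed, hold Tfrc in both depots, with a log2 fold change of 0.46 (adjusted p = 0.00367) in gonadal and 0.75 (adjusted p = 6.74e-05) in inguinal fat. When each library was counted as a replicate, limma called Tfrc in both depots too (adjusted p = 0.0305 in gonadal and 0.0093 in inguinal fat), and DESeq2 on rebuilt reads called it in inguinal fat (adjusted p = 0.0266). The 2 libraries of one animal are not independent animals, so the p-values that count libraries do not measure the spread between animals. DESeq2, here and below, was run on reads summed over the 2 libraries of a pad, so its replicates were animals.

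Slc40a1, the ferroportin gene and the only known cellular exporter of free iron, had 2.73, 3.80 and 2.54 FPKM in gonadal fat of KO animals M5, M9 and M12, against 3.72, 5.04 and 4.97 FPKM in controls M6, M7 and M10. KO M9 lay just above control M6, so the groups overlapped; 7.54% of all genes were lower with no overlap in that depot. In inguinal fat it had 1.73, 2.51 and 2.39 FPKM in the KO animals, against 3.64, 1.84 and 3.66 FPKM in the controls, and the low control was M7. In gonadal fat the difference was -0.53 on the log2 scale (SE 0.18), with unadjusted p = 0.0256 and limma adjusted p = 0.512, and -0.35 (SE 0.27) in inguinal fat, with limma adjusted p = 0.610. The authors' deposited table lists it in gonadal fat at -0.51 (adjusted p = 0.00823). Leaving out 1 animal at a time gave -0.63 (without control M7) to -0.21 (without control M10) in inguinal fat, and limma with each library as a replicate called the gonadal difference (adjusted p = 0.0252).

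The importer and the exporter were also set against each other within a pad. The Tfrc to Slc40a1 ratio of FPKM was 4.42, 3.41 and 5.31 in gonadal fat of KO animals M5, M9 and M12, against 1.84, 2.06 and 2.13 in controls M6, M7 and M10, with no overlap (exact two-sided permutation p = 0.1, the smallest that 3 animals against 3 allow). In inguinal fat it was 6.37, 2.90 and 4.16 in the KO animals, against 1.39, 3.85 and 1.29 in the controls, and KO M9 lay below control M7 (exact permutation p = 0.2). A ratio within a pad is free of the pad's scaling but does not say which of the genes differed. How often ratios of other genes do not overlap was not computed.

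**Figure D2:**
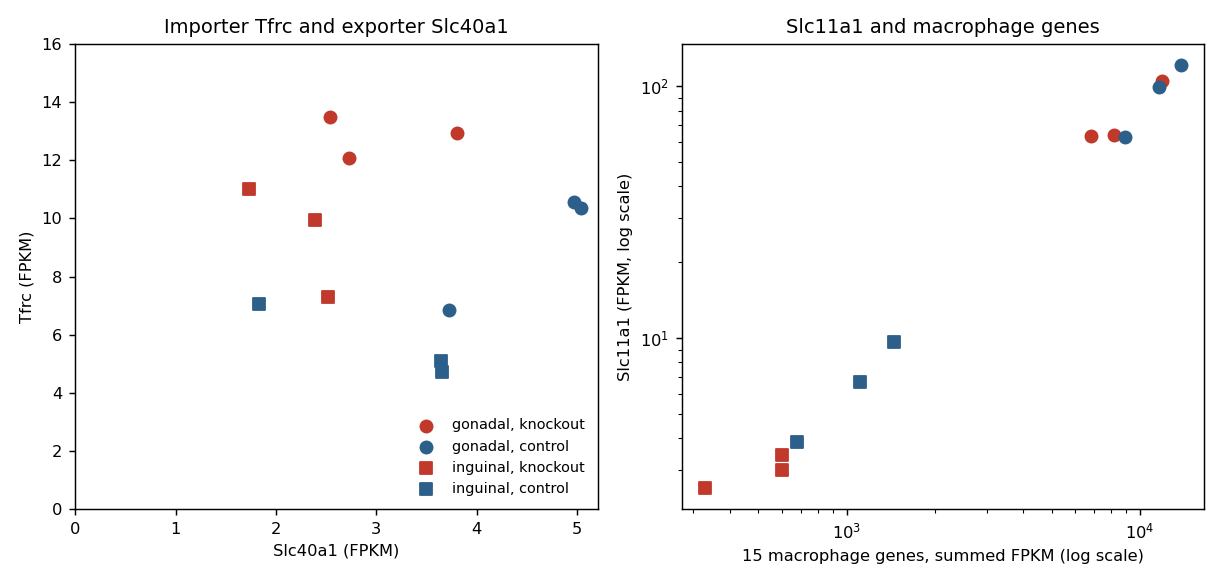
Left, Tfrc (y axis, FPKM) against Slc40a1 (x axis, FPKM) in the 12 pads; right, Slc11a1 (y axis, FPKM, log scale) against the summed FPKM of 15 macrophage genes (x axis, log scale); circles are gonadal and squares inguinal pads, red KO and blue control. Within each depot KO pads lie higher on the left plot than control pads, with gonadal Tfrc at 12.1 to 13.5 FPKM in KO and 6.83 to 10.6 FPKM in control animals, and on the right Slc11a1 is lowest in the pads with the lowest macrophage sums.

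Slc11a1 encodes NRAMP1, which pumps iron and manganese out of the phagosomes of macrophages. In inguinal fat it had 3.42, 2.54 and 2.99 FPKM in KO animals M5, M9 and M12, against 9.63, 3.86 and 6.68 FPKM in controls M6, M7 and M10. All KO pads lay below all controls, a pattern that 17.3% of all genes shared in that depot (22.5% in either direction). The log2 fold change was -0.98 (SE 0.31), with unadjusted p = 0.0196 and limma adjusted p = 0.243, and leaving out 1 animal at a time gave -1.30 to -0.69. The authors' deposited table gives -0.89 (adjusted p = 9.79e-06), and limma with each library as a replicate (adjusted p = 0.00982) and DESeq2 (adjusted p = 0.0225) called it. In gonadal fat Slc11a1 had 105, 64.2 and 63.3 FPKM in the KO animals, against 62.9, 121 and 99.6 FPKM in the controls, and the groups overlapped (-0.28 on the log2 scale, SE 0.31, limma adjusted p = 0.867).

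Macrophage genes moved with Slc11a1 in inguinal fat. The 15 macrophage markers, among them Adgre1, Cd68 and Csf1r, summed to 601, 330 and 601 FPKM in KO animals M5, M9 and M12, against 1446, 677 and 1108 FPKM in controls M6, M7 and M10, with no marker at 0. Of the 15, 14 were lower in KO inguinal fat, 10 at an unadjusted p under 0.05, and their median log2 fold change was -1.02. Per 1000 FPKM of these markers, Slc11a1 was at 5.70, 7.69 and 4.98 FPKM in KO inguinal pads and at 6.66, 5.71 and 6.03 FPKM in control inguinal pads, and the groups overlapped. Ftl1, Slc40a1, Trf and Hpx overlapped on this scale too. Hmox1, at 25.3 to 43.8 FPKM in KO and 16.2 to 22.4 FPKM in control inguinal pads, was higher in KO without overlap. So were Fth1 (3049 to 5825 and 1676 to 2998 FPKM), Tfrc and Slc11a2. In a whole pad, fewer macrophages and less RNA in each of them cannot be told apart. In gonadal fat 14 of the 15 markers were lower in KO (median log2 fold change -0.41, 3 at an unadjusted p under 0.05), with sums of 6807 to 11924 FPKM in KO and 8915 to 13778 FPKM in control pads. These sums overlapped, but the mean of the 15 markers on the log scale of the tests did not. It was 6.69, 6.32 and 6.11 in KO M5, M9 and M12, against 6.79, 6.84 and 6.72 in controls M6, M7 and M10. Other cell types moved in inguinal fat too: 7 of 7 progenitor and fibroblast markers (median -0.51, 4 at an unadjusted p under 0.05) and 8 of 8 skeletal muscle markers (median -2.33, 0 at that level) were lower in KO, and their part in the results was not tested.

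Ferritin is built of heavy subunits (Fth1), which oxidise iron, and light subunits (Ftl1), which help it mineralise. Ftl1 in inguinal fat had 1483, 1292 and 1406 FPKM in KO animals M5, M9 and M12, against 2215, 1634 and 1960 FPKM in controls M6, M7 and M10, without overlap. Its log2 fold change was -0.47 (SE 0.18), with unadjusted p = 0.0401 and limma adjusted p = 0.316. The authors' deposited table gives -0.34 (adjusted p = 4.07e-08), and both limma with each library as a replicate (adjusted p = 0.00983) and DESeq2 (adjusted p = 0.00385) called it. Fth1 there had 1983, 1922 and 1833 FPKM in the KO animals, against 2423, 2029 and 2035 FPKM in the controls, again without overlap but with a difference of -0.17 on the log2 scale (SE 0.17, limma adjusted p = 0.698). The inguinal median over all genes was itself -0.10, and 0.02 after the pads were set to equal medians, where Ftl1 stood at -0.35 and Fth1 at -0.05. Without control M6 the Fth1 value was -0.09, and it was -0.08 with edgeR and -0.05 with DESeq2.

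In gonadal fat the ferritin messages overlapped between genotypes. Ftl1 had 8462, 5611 and 5350 FPKM in the KO animals, against 4897, 8507 and 6693 FPKM in the controls (-0.04 on the log2 scale, SE 0.31), and its direction changed when KO M9, KO M12 or control M7 was left out. Fth1 had 6533, 5144 and 4202 FPKM in the KO animals, against 5010, 7976 and 6634 FPKM in the controls (-0.30 on the log2 scale, SE 0.28, limma adjusted p = 0.823). The proportion of light to heavy subunit message separated the genotypes in both depots, in opposite directions. The Ftl1 to Fth1 ratio was 1.30, 1.09 and 1.27 in KO gonadal pads, against 0.977, 1.07 and 1.01 in control gonadal pads (exact permutation p = 0.1, the smallest possible). In inguinal pads it was 0.748, 0.672 and 0.767 in KO animals, against 0.914, 0.806 and 0.964 in controls (exact permutation p = 0.1). In gonadal fat KO M9 and control M7 lay close together. Single genes without overlap made up 14.3% of all genes in gonadal and 22.5% in inguinal fat. That share was not computed for ratios of other genes. The Slc11a1 to Slc11a2 ratio, also tried, gave exact permutation p = 0.5 in gonadal and 0.1 in inguinal fat. Fth1 and Ftl1 have near-identical processed copies in the mouse genome, so how the authors' counting treated reads with several matches could shift their levels.

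Hmox1 encodes heme oxygenase 1, which is induced by heme and oxidants and is abundant in macrophages that clear red blood cells. In gonadal fat it had 221, 134 and 96.1 FPKM in KO animals M5, M9 and M12, against 101, 303 and 191 FPKM in controls M6, M7 and M10. In inguinal fat it had 15.2, 14.4 and 17.8 FPKM in the KO animals, against 23.5, 15.2 and 18.1 FPKM in the controls. The groups overlapped in both depots, and the log2 fold changes of -0.34 (SE 0.48) and -0.24 (SE 0.17) had limma adjusted p = 0.905 and 0.585. The 95% interval in gonadal fat ran from -1.51 to 0.82, and the sign changed without control M7.

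Slc11a2 encodes DMT1, which moves ferrous iron out of endosomes after transferrin uptake. It was the most even of the members, with 10.8, 9.94 and 11.2 FPKM in KO and 9.45, 11.8 and 12.4 FPKM in control gonadal pads, and 7.58, 6.80 and 6.95 FPKM in KO and 6.60, 6.49 and 6.83 FPKM in control inguinal pads. The log2 fold changes were -0.07 (95% interval -0.36 to 0.23) in gonadal and 0.09 (-0.11 to 0.30) in inguinal fat. The authors' deposited table nevertheless lists it in inguinal fat at 0.22 (adjusted p = 0.0265), and after equal pad medians the value here was 0.21, with limma adjusted p = 0.623.

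Trf, the gene of transferrin, and Hpx, that of the heme scavenger hemopexin, were both low. Trf had 1.41 to 2.52 FPKM in KO and 1.87 to 2.35 FPKM in control gonadal pads, and 1.44 to 2.18 FPKM in KO and 1.55 to 2.82 FPKM in control inguinal pads. The log2 fold changes were -0.20 (SE 0.20) and -0.22 (SE 0.22), with limma adjusted p = 0.845 and 0.713. The 2 libraries of a pad differed by up to 2.35-fold for Trf, the most of any member with reads in every library. In GENCODE M21 the same-strand model Gm20425 (chr9:103190208-103230307) shares 63.5% of the exon bases of Trf (chr9:103204001-103230444) and is listed at 0 FPKM in all 12 pads. No source used here says how reads that fall in both models were counted, so the level of Trf may be understated by an unknown amount.

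Hpx had 1.08, 2.33 and 1.35 FPKM in KO and 0.781, 2.82 and 1.31 FPKM in control gonadal pads, and 0.374, 1.57 and 0.320 FPKM in KO and 0.501, 0.333 and 1.21 FPKM in control inguinal pads. Its 95% intervals, -0.95 to 1.02 and -1.08 to 1.11 on the log2 scale, do not resolve a 2-fold difference. In the same order of animals, 7 hepatocyte markers summed to 5.10, 49.4 and 45.5 FPKM in KO and 4.60, 8.26 and 3.70 FPKM in control gonadal pads. In inguinal pads they summed to 30.2, 50.7 and 27.6 FPKM in KO and 16.5, 18.9 and 39.1 FPKM in control animals. The part of hepatocyte transcripts in the Hpx values was not tested. Over the 18 exact permutation tests of the 9 members in 2 depots, 5 reached the smallest p possible, 0.1 (Tfrc in both depots, and Slc11a1, Ftl1 and Fth1 in inguinal fat). That p means pads that do not overlap, as in 14.3% of all genes in gonadal and 22.5% in inguinal fat.

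**Figure D3:**
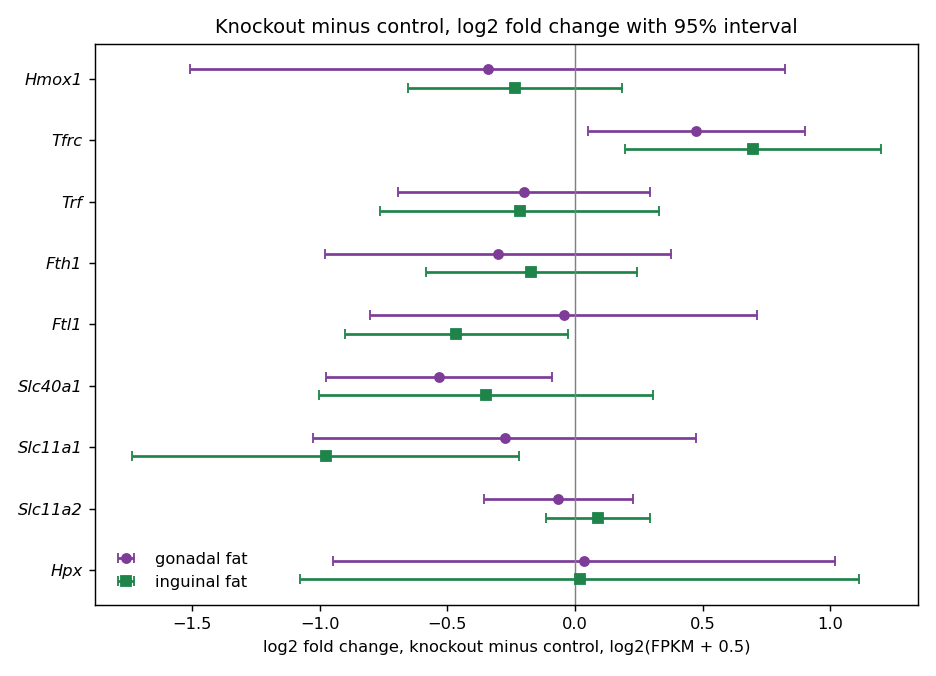
Log2 fold change, KO minus control, on the log2(FPKM + 0.5) scale (x axis) for each gene (rows), with 95% intervals from limma; purple circles are gonadal and green squares inguinal fat. The intervals of Tfrc lie above 0 in both depots, those of Slc40a1 in gonadal fat and of Slc11a1 and Ftl1 in inguinal fat lie below 0, and the other intervals cross 0.

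Whether the effect of the knockout differed between depots was tested directly. None of the 9 members was called (limma, 0 of 14577 genes, 0%), 0 members had an unadjusted p under 0.05, against 4.97% of all genes (4.21% higher and 0.761% lower), edgeR called 0 genes and DESeq2 16, none of them a member. The largest difference was that of Slc11a1, whose gonadal effect exceeded its inguinal effect by 0.70 (SE 0.47, unadjusted p = 0.164, limma adjusted p = 1.0). For Tfrc the difference was -0.22, with a 95% interval of -0.86 to 0.41.

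The other genes of iron and heme handling were taken from 9 lists of 73 genes in all, and none was called in either KO comparison (limma adjusted p of at least 0.144). Values below are log2 fold changes, KO minus control, with their SE. The counts at an unadjusted p under 0.05 are to be read against the shares over all genes. These were 4.40% higher and 4.30% lower in gonadal fat, and 3.29% higher and 11.6% lower in inguinal fat. In heme synthesis 2 of 9 tested genes were lower in gonadal fat at an unadjusted p under 0.05, and 1 of 9 in inguinal fat. Alas2, the red-cell form of the first enzyme of the pathway, averaged 27.1 ± 10.7 FPKM in KO and 82.9 ± 54.4 FPKM in control gonadal fat (log2 fold change -1.48, SE 0.53), and 19.8 ± 1.2 FPKM in KO and 69.6 ± 43.2 FPKM in control inguinal fat (-1.51, SE 0.57). Cpox, a later enzyme, had a log2 fold change of -0.29 in gonadal fat (SE 0.10). In inguinal fat Alas1, the form of the first enzyme used outside red cells, stood at 0.21 (SE 0.10) and Fech, which inserts the iron, at -0.16 (SE 0.08). Red blood cell genes such as Hba-a1 and Slc4a1 moved with Alas2: 7 of them summed to 1597 to 4145 FPKM in KO and 4183 to 13443 FPKM in control gonadal pads, and to 2279 to 2538 FPKM in KO and 3038 to 10420 FPKM in control inguinal pads, and their part in the result was not tested.

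Among genes that break down and carry heme, in inguinal fat 4 of 8 tested genes of heme breakdown and transport had an unadjusted p under 0.05, all lower (11.6% of all genes were lower at that level), and in gonadal fat 0 of 8. Blvra, which makes bilirubin from biliverdin, averaged 24.8 ± 1.3 FPKM in KO and 34.4 ± 3.1 FPKM in control inguinal fat (-0.47, SE 0.09, limma adjusted p = 0.147). The efflux transporter Abcg2 stood at -0.39 (SE 0.10), Blvrb, another biliverdin reductase, at -0.33 (SE 0.09), and the heme transporter Slc48a1 at -0.24 (SE 0.08). The 3 smallest p in gonadal fat belonged to Slc46a1, a folate and heme transporter (0.21, SE 0.16), Blvra (-0.09, SE 0.15) and Hmox2, the constitutive heme oxygenase (0.05, SE 0.10).

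All 3 genes that scavenge haemoglobin and heme complexes were lower in both depots, 2 of them at an unadjusted p under 0.05 in inguinal fat. Lrp1, which takes up hemopexin-bound heme, averaged 24.5 ± 3.2 FPKM in KO and 37.5 ± 2.4 FPKM in control inguinal fat (log2 fold change -0.61, SE 0.11, limma adjusted p = 0.144), and stood at -0.23 in gonadal fat (SE 0.11). Cd163, the macrophage receptor for haptoglobin-bound haemoglobin, averaged 5.94 ± 1.5 FPKM in KO and 12.3 ± 4.3 FPKM in control inguinal fat (-0.97, SE 0.27), close to the median of -1.02 of the macrophage markers given above, and stood at -0.27 in gonadal fat (SE 0.32). Haptoglobin (Hp), an acute phase protein that fat makes in quantity, stood at -0.43 (SE 0.19) in inguinal and -0.46 (SE 0.32) in gonadal fat.

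Among 7 tested genes of iron uptake and reduction in inguinal fat, 2 were lower and 1 higher at an unadjusted p under 0.05. Steap3, the endosomal ferrireductase that acts beside the transferrin receptor, stood at -0.46 (SE 0.12), and Steap4, an adipocyte metalloreductase, at -0.48 (SE 0.19). Tfr2, the second transferrin receptor, averaged 3.71 ± 1.0 FPKM in KO and 1.57 ± 0.56 FPKM in control inguinal fat (log2 fold change 1.04, SE 0.27, limma adjusted p = 0.195). In gonadal fat 0 of 10 had an unadjusted p under 0.05. There Slc22a17, a receptor for lipocalin 2, stood at 0.24 (SE 0.13), and the zinc and iron importers Slc39a14 and Slc39a8 at -0.45 (SE 0.26) and -0.63 (SE 0.38).

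Ferroxidases load iron onto transferrin after export. In inguinal fat Heph stood at -0.36 (SE 0.10), Hephl1 at 1.2 (SE 0.35), with 3.44 ± 0.95 FPKM in KO and 1.28 ± 0.71 FPKM in control pads, and ceruloplasmin (Cp) at 0.31 (SE 0.09), so 2 of 6 were higher and 1 lower at that level. In gonadal fat all 5 tested genes of the list had values below 0, among them the iron chaperone Pcbp2 (-0.23, SE 0.08), Cp (-0.25, SE 0.11) and Ncoa4, which delivers ferritin to lysosomes (-0.24, SE 0.12). The messages of the proteins that bind the hairpins above gave no unadjusted p under 0.05 in either depot. Aco1 and Ireb2, which encode iron regulatory proteins 1 and 2, stood at 0.14 (SE 0.16) and 0.02 (SE 0.08) in gonadal and at 0.01 (SE 0.12) and -0.04 (SE 0.11) in inguinal fat, and Fbxl5, the iron-sensing subunit that marks the Ireb2 protein for degradation, at -0.12 (SE 0.17) and -0.20 (SE 0.10).

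In the hepcidin axis, which sets ferroportin levels in the body, Hfe averaged 52.1 ± 10.2 FPKM in KO and 33.8 ± 2.6 FPKM in control gonadal fat (log2 fold change 0.60, SE 0.15, limma adjusted p = 0.454) and stood at 0.26 in inguinal fat (SE 0.12). The ligand Bmp2 stood at -0.26 (SE 0.17) and the receptor Neo1 at -0.18 (SE 0.17) in gonadal fat. In inguinal fat the protease Tmprss6 was at 0.56 (SE 0.15), the ligand Bmp6 at -0.44 (SE 0.16) and Bmp2 at -0.40 (SE 0.17).

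For mitochondrial iron and iron-sulfur assembly, 3 of 14 genes were higher and 1 lower at an unadjusted p under 0.05 in gonadal fat, and 0 higher and 2 lower in inguinal fat. The mitochondrial iron importer Slc25a37 averaged 8.19 ± 0.955 FPKM in KO and 11.7 ± 1.0 FPKM in control gonadal fat (-0.49, SE 0.11, limma adjusted p = 0.421), Abcb8 stood at 0.29 (SE 0.09) and Isca2, an assembly factor, at 0.27 (SE 0.09). In inguinal fat Slc25a28, a paralog of Slc25a37, stood at -0.37 (SE 0.10) and the cochaperone Hscb at -0.26 (SE 0.09). The heme and oxidant response list holds 10 genes, both regulators of Hmox1, ferritin and ferroportin transcription and antioxidant enzymes such as Gclm and Srxn1. Of these, 2 were lower and 1 higher in inguinal fat at an unadjusted p under 0.05. Nfe2l2 (NRF2) stood at -0.34 (SE 0.07), Maf at -0.81 (SE 0.19) and Srxn1, an antioxidant target of that response, at 0.42 (SE 0.11). In gonadal fat 0 of 10 had an unadjusted p under 0.05, with Bach1, the heme-sensing repressor of Hmox1, at -0.22 (SE 0.17), Nfe2l2 at -0.16 (SE 0.18) and Gclm at -0.20 (SE 0.23).

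**Figure D4:**
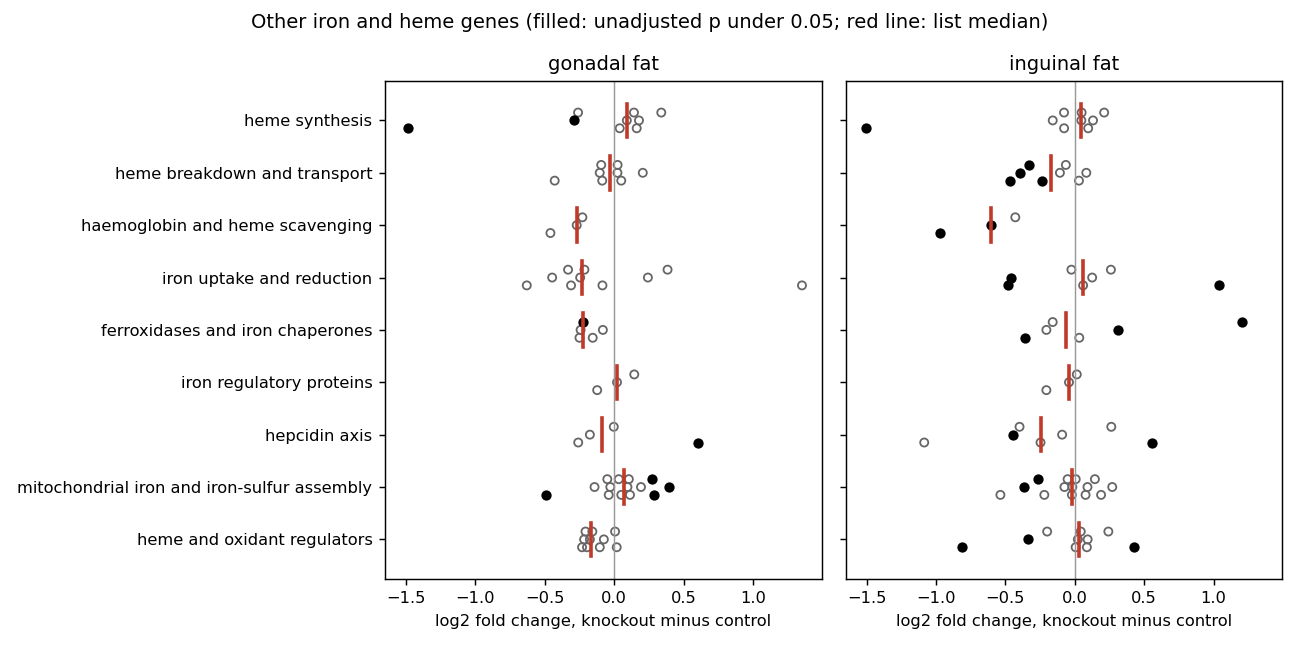
Log2 fold change, KO minus control (x axis), of every tested gene of the 9 iron and heme lists (rows) in gonadal (left) and inguinal fat (right); filled points have an unadjusted p under 0.05 and red lines are list medians. No gene was called by limma after adjustment over all genes, and in inguinal fat the filled points of heme breakdown and scavenging lie at -0.24 to -0.97.

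The second comparison set gonadal against inguinal fat of the same genotype. Hmox1, Slc11a1, Fth1, Ftl1 and Slc11a2 rose in gonadal over inguinal fat in both KO and control animals, so 5 of 9 members were called in each, all higher. At an unadjusted p under 0.05, 6 of 9 were higher and 0 lower in each genotype, against 55.9% of all genes in KO animals (41.0% higher) and 51.0% in controls (33.2% higher). After adjustment, of all genes, 47.8% were called in KO animals (35.1% higher and 12.7% lower) and 41.4% in controls (26.9% higher and 14.5% lower). That split turned round with the scaling: 5122 genes were called higher and 1849 lower in KO animals, against 2206 and 4021 after the pads were set to equal medians, and 3904 and 2106 in controls, against 2437 and 3768. The median of all genes was 0.27 in KO and 0.18 in control animals, and -0.14 and -0.12 after that step, so the smaller differences below are read against it.

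Gonadal pads lay above all inguinal pads for 7 of 9 members in KO animals, against 46.9% of all genes (63.5% in either direction), and for 6 of 9 in controls, against 38.7% higher and 20.2% lower (58.9% in all).

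Slc11a1 differed most, by a log2 fold change of 4.45 (SE 0.22, limma adjusted p = 0.000213) in KO and 3.75 (SE 0.37, adjusted p = 0.00103) in control animals, with means of 77.5 FPKM in gonadal and 2.98 FPKM in inguinal fat of KO animals and 94.6 FPKM in gonadal and 6.73 FPKM in inguinal fat of controls. Hmox1 followed with 3.13 (SE 0.30, adjusted p = 0.000789) in KO and 3.24 (SE 0.40, adjusted p = 0.00197) in control animals. For Ftl1 it was 2.19 (adjusted p = 0.000936) in KO and 1.77 (adjusted p = 0.00600) in control animals, and for Fth1 1.45 (adjusted p = 0.00272) in KO and 1.58 (adjusted p = 0.00687) in control animals. Equal medians, edgeR and DESeq2 kept these 4 genes called and higher. Without control M10 the control adjusted p of Fth1 was 0.199 and that of Ftl1 0.154. The gonadal pads of M10 and of control M6, which stayed in, both held epididymis genes, and their part was not tested. Without a level filter the adjusted p of Fth1 was 0.145 in controls and 0.0659 in KO animals, and that of Ftl1 0.105 in controls.

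Slc11a2 differed by 0.55 (SE 0.08, limma adjusted p = 0.00332) in KO and 0.71 (SE 0.12, adjusted p = 0.00600) in control animals, but by 0.14 (adjusted p = 0.296) and 0.40 (adjusted p = 0.0691) with equal pad medians. Leaving out 1 animal at a time, its limma adjusted p in controls ran from 0.0102 to 0.103. Tfrc differed by 0.45 (SE 0.16, adjusted p = 0.058) in KO and 0.67 (SE 0.22, adjusted p = 0.0511) in control animals and was called in controls with the animal as a block (adjusted p = 0.0482). Tfrc was also called in controls among genes with a mean of at least 2 FPKM (adjusted p = 0.0459). Slc40a1 at 0.37 and 0.56 was not called, and in KO animals stood at -0.04 with equal medians. Hpx at 0.83 and 0.81 was called in KO animals with the block alone (adjusted p = 0.0447), and Trf was at -0.01 and -0.02. With each library as a replicate, limma called Tfrc (adjusted p = 0.0025 in KO and 0.00297 in control animals), Slc40a1 (0.0224 in KO and 0.0222 in control animals) and, in controls, Hpx (0.0456).

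**Figure D5:**
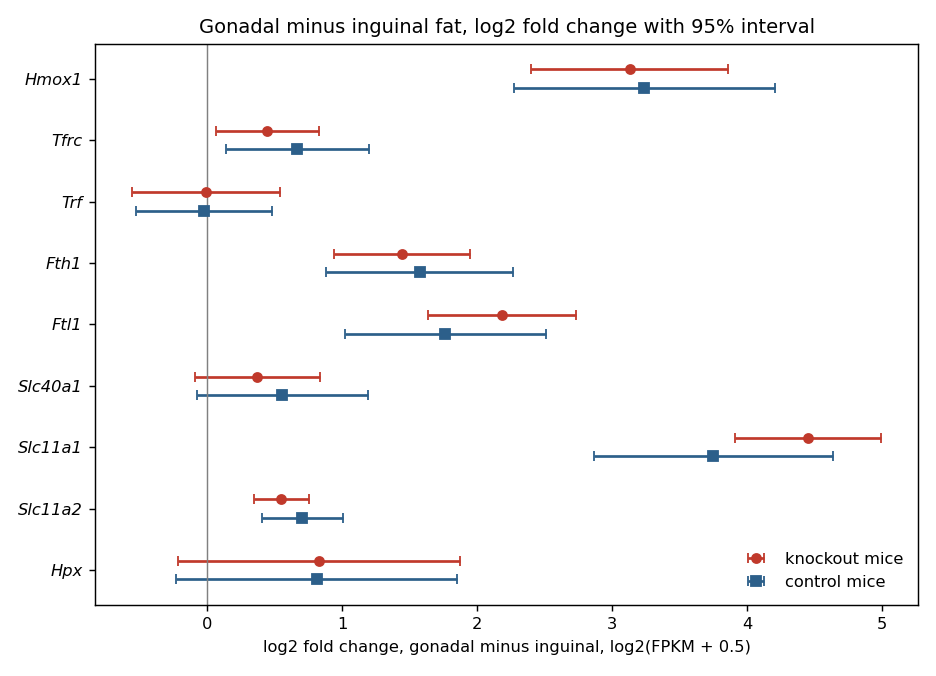
Log2 fold change, gonadal minus inguinal fat, on the log2(FPKM + 0.5) scale (x axis) for each gene (rows) in KO (red circles) and control animals (blue squares), with 95% intervals from limma. Slc11a1 and Hmox1 lie above 2 in both genotypes, the ferritin genes above 1, and Trf close to 0.

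Markers of macrophages moved with this difference: 14 of 15 were called higher in gonadal fat of KO animals and 12 of 15 in that of controls. Their sums in inguinal pads, 330 to 601 FPKM in KO and 677 to 1446 FPKM in control animals, lay below all gonadal sums given above. Per 1000 FPKM of these markers, Slc11a1 was at 7.86 to 9.30 FPKM in gonadal and 4.98 to 7.69 FPKM in inguinal pads of KO animals and at 7.06 to 8.80 and 5.71 to 6.66 FPKM in those of controls. Fth1 was lower on this scale in gonadal fat, at 548 to 630 FPKM in gonadal and 3049 to 5825 FPKM in inguinal pads of KO animals and at 562 to 579 and 1676 to 2998 FPKM in those of controls. Markers of other cell types followed the depot too. In KO and control animals, 6 of 6 and 4 of 5 tested neutrophil markers were called higher in gonadal fat (medians 3.55 and 3.57), as were 5 of 5 mesothelial markers in each genotype (5.49 and 5.63). Progenitor and fibroblast markers had 5 of 7 called higher and 1 lower in each, and adipocyte markers had 6 of 10 called lower in KO animals and 9 of 10 in controls (-0.97 and -1.43). The part of these cell types and of macrophages in the depot difference was not tested.

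Other list genes followed the depot as well. In the heme and oxidant response list, of regulators and antioxidant enzymes, 9 of 10 genes were called higher in gonadal fat in each genotype. Bach1 was at 1.99 in KO and 2.0 in control animals and Nfe2l2 at 1.18 in KO and 1.0 in control animals. In iron uptake and reduction 7 of 10 were called higher and 1 lower in KO animals, and 6 and 1 in controls, where the lower one was Tfr2 (-1.88 in KO and -1.23 in control animals). Mitochondrial iron and iron-sulfur genes went the other way, with 8 of 14 called lower and 2 higher in both genotypes. Aco1 was lower in gonadal fat, by a log2 fold change of -0.96 in KO and -1.09 in control animals, and Ireb2 was not called.

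The genes whose pattern over the 12 pads was most like each member, by Pearson correlation of log2(FPKM + 0.5) among 12069 named genes, mostly follow the depot, which all pads share. Slc11a1 was closest to Itgam (r = 0.999), Fcer1g (0.998) and Csf2ra (0.998), Hmox1 to Clec5a, Ptgir and Nlrp3 (each 0.996), and Fth1 to Arf2 (0.998), Hmox1 (0.995) and Nlrp3 (0.995). Ftl1 was closest to Tnip3 (0.998), Metrnl (0.997) and Dnase1l1 (0.996), and Slc11a2 to Ak4, Samd8 (each 0.983) and Rnf149 (0.982). The other members had partners with lower correlations: Tfrc had Dera (0.954), Stk35 (0.904) and Rnf217 (0.901), Slc40a1 had Zfp948 (0.911), Adam19 (0.909) and Snx9 (0.896), Hpx had Ets2 (0.838), Zcchc10 (0.817) and Trappc3 (0.816), and Trf had Xkr8 (0.753), Dnajc24 (0.704) and Hexim1 (0.693).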

How the data were processed

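Total RNA (Qiagen RNeasy) became NEBNext Ultra libraries, per the labels' protocols. CASAVA, STAR and build mm10 come from the submitters' processing notes. No source used here names the counting tool or its strand setting. The authors deposited FPKM for 35275 genes in 24 libraries with the gene length as another column, and, per the file headers, comparison tables of read counts, log2 fold changes and p-values for the genes they list as changed. Column names gave the genotype (z knockout, f control), animal and depot (e gonadal, s inguinal); they were read by inference and mapped to groups, not to single samples.

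Libraries of a pad were averaged. limma 3.58.1 (R 4.3.3, trend, two-sided) tested log2(FPKM + 0.5), a scale that understates changes of low genes, in genes with a mean of at least 0.5 FPKM, adjusted over all of them. Reads rebuilt from FPKM, gene length and library totals were whole numbers in 100% of values (tolerance 0.001). They were summed over the libraries of a pad and tested with edgeR 4.0.16 and DESeq2 1.42.0. The fits were also run on simulated counts, drawn independently for each gene and pad, so without differences in tissue mixture between pads, and the outcome is not given here. The members and gene lists were chosen with earlier results of these data known. Named genes are the 9 members, Foxo1, list genes past the threshold or with the 3 smallest p in a knockout comparison, and the 3 nearest partners, except list genes not reported here; Lcn2 in the closing section and all depot values of list genes were chosen after their values were seen. All 173 list genes were found, 4 under an older symbol. Gonadal and inguinal pads with an animal number come from the same animal by these names; their deviations from group means correlated at -0.0954 to 0.136 over 6 animals.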

Additional observations from a re-analysis of the deposited data

Results flagged for a closer look

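The Ftl1 to Fth1 ratio was flagged because every KO pad lay on one side of the controls in gonadal fat and on the other side in inguinal fat. Its mean was 1.22 ± 0.11 in KO and 1.02 ± 0.05 in control gonadal fat, a difference of 0.202, and 0.729 ± 0.050 in KO and 0.894 ± 0.081 in control inguinal fat, a difference of -0.165 (SD, n = 3 animals each). The difference between depots was not tested, and the share of other gene pairs with such a pattern was not computed.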

How the results depend on the processing

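Pseudocounts of 0.1 and 1, other level filters, equal pad medians and edgeR kept each count of called genes within 1.5 times its value. Counting each library as a replicate gave 1125 genes in gonadal fat (0 with animals), 2189 in inguinal fat (3), 265 for the difference between depots (0) and 9100 between depots of controls (6010). DESeq2 with animals as replicates gave 313, 661 and 16 for the first 3 of these comparisons. In gonadal fat 1291 genes had an unadjusted p under 0.05 with limma, and edgeR called 0. Leaving out 1 animal gave 0 to 1 genes in gonadal fat, 0 to 78 in inguinal fat (78 without control M7), 3047 (without KO M5) to 5911 between depots of KO animals and 1534 (without control M10) to 5257 between those of controls. The cause was not tested.

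Signs near 0 changed. Without 1 animal, the gonadal knockout effect ran from -0.76 to 0.032 for Hmox1, -0.25 to 0.15 for Ftl1, -0.18 to 0.0080 for Slc11a2 and -0.28 to 0.41 for Hpx, and the inguinal effect of Hpx from -0.41 to 0.32. The difference between depots ran from -0.69 to 0.41 for Hmox1, -0.17 to 0.27 for Trf, -0.39 to 0.069 for Fth1, -0.45 to 0.16 for Slc40a1 and -0.35 to 0.61 for Hpx, and Trf between depots of controls from -0.27 to 0.12 and of KO animals from -0.19 to 0.24. Gonadal Hpx was at -0.025 with each library a replicate, -0.048 with edgeR, -0.027 with DESeq2 and -0.65 in pads with under 100 FPKM of epididymis genes, and inguinal Hpx at -0.014 with a pseudocount of 0.1. For the difference between depots, Hpx was at -0.0074 with a pseudocount of 1, -0.089 with equal medians, -0.17 with each library a replicate, -0.41 with edgeR and -0.43 with DESeq2, and Trf at -0.089 with equal medians. In KO animals Trf between depots was at 0.018 with each library a replicate and Slc40a1 at -0.036 with equal medians.

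With the animal as a replicate block, 6365 genes were called between depots of KO animals, 5092 between those of controls and 0 for the difference between depots. Of the members' calls, the block changed those of Tfrc in controls and Hpx in KO animals alone. No paired analysis was possible for knockout against control because no animal is in both genotypes.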

Other observations

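Lipocalin 2 (Lcn2), a protein that binds iron-carrying siderophores, was even in inguinal fat, at 1.54 to 1.93 FPKM in KO and 1.45 to 1.76 FPKM in control pads, and higher in gonadal fat. There it had 20.6, 28.5 and 496 FPKM in KO animals M5, M9 and M12, against 17.1, 30.3 and 33.1 FPKM in controls M6, M7 and M10. The high pad, that of KO M12, also held the largest sum of epididymis genes, 5296 FPKM. The gonadal pad of control M10 held 3063 FPKM of those genes and 33.1 FPKM of Lcn2. On the log scale used for the tests, the mean of the epididymis genes was 6.96 in KO M12 and 4.21 in control M10. The part of epididymis tissue in the Lcn2 values was not tested. Haptoglobin (Hp) was lowest in that same KO M12 gonadal pad, at 1176 FPKM, against 2228 to 2351 FPKM in the other KO and 2095 to 3040 FPKM in control gonadal pads.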
